A study of Mus musculus with 6 samples.

Results

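The genes described here encode the proteins of the mitochondrial ribosome. They were taken as all protein-coding genes whose symbol is Mrpl (large subunit) or Mrps (small subunit) followed by a digit, which gave 78 of the 25308 genes with a count in at least 1 library. A further 5 genes with such symbols are pseudogenes and were left out. Of the 78 members, 51 belong to the large subunit and 26 to the small subunit. The last one, Mrps36, carries the name but is known as a component of the oxoglutarate dehydrogenase complex and not as a ribosomal protein. Mrps18a and Mrps30 are named for the small subunit but sit in the large one, and they were counted there.

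RNA was sequenced from C2C12 cells, a mouse myoblast line whose cells stop dividing and fuse into myotubes when serum is low. Each of 3 groups had 2 libraries of polyA RNA. Myoblasts were taken at Day 0 while they proliferated. Myotubes and reserve cells were both taken at Day 7 by the labels, reserve cells being the mononucleated cells that stay unfused in the culture. The study's general methods name a shorter time for obtaining both, and the labels were followed here. Differentiation was in DMEM with 2% horse serum, and myotubes were lifted off the reserve cells with mild trypsin, so each group is as pure as that separation. The 2 libraries per group are biological replicates by the submitters' account. Whether they came from separate cultures is not given in the sources used here, so p-values measure the spread between these libraries only. The labels name no transgene or deletion, and all cells come from 1 immortalized line.

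Mitochondria keep a small genome that encodes subunits of the oxidative phosphorylation complexes, and they translate it on ribosomes of their own. The ribosomal RNAs come from that genome. Every ribosomal protein is encoded in the nucleus, made in the cytosol and imported. Many of these proteins have homologs in bacterial ribosomes, and the others are known only from mitochondria. Muscle differentiation is known for a rise in oxidative capacity, and the mitochondrial ribosome makes the mitochondrially encoded part of that machinery.

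All 78 members passed the filter on low counts. They lie on 17 chromosomes, with at most 11 on 1 of them, so they are no genomic cluster. Per kilobase of transcript, their levels differed 42.3-fold. The median member had a mean of 55.6 over the 6 libraries, in TPM (counts per kilobase, scaled to the same sum in each library). Mrpl33, a small protein of the large subunit, had the highest mean at 284 TPM, followed by Mrpl52, a protein of the central protuberance, at 272 TPM. Mrpl14 and Mrps21 stood at 188 and 185 TPM. The 4 members with the lowest means were Mrpl35 (6.72 TPM), Mrps35 (9.82 TPM), Mrpl19 (13.8 TPM) and Mrps25 (14.6 TPM). Mrpl33 itself stood at 226 and 247 TPM in myoblasts, at 344 and 345 TPM in myotubes and at 306 and 238 TPM in reserve cells. For Mrpl33, both myotube libraries lay above all the others, and myoblasts and reserve cells overlapped.

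The library totals were 15658875 to 20055078 estimated counts. All 9 myotube markers tested, among them Acta1, Tnnt3, Mymk and Atp2a1, were higher in myotubes than in myoblasts, and the 15 genes of S phase and mitosis were lower. The reserve cell libraries also held myotube transcripts. The same 9 markers were higher there than in myoblasts (median log2 fold change 5.36), though lower than in myotubes. Acta1, skeletal muscle actin, averaged 52.8, 8186 and 2546 CPM (per library total, adjusted by TMM factors) in myoblasts, myotubes and reserve cells. The satellite cell gene Pax7 averaged 70.6, 9.99 and 63.4 CPM. It is 1 of 9 reserve cell markers, of which 3 were higher, 3 lower and 3 not called in reserve cells over myoblasts, and 1 was higher and 7 lower in myotubes over reserve cells. The part of these transcripts in the values of the reserve cells was not tested. The adipocyte markers had 0 counts in all groups, and the macrophage and endothelial markers stayed near 0 (Cd68 highest, with a mean of 2.02 CPM in myoblasts). Of the 3 macrophage markers tested, Cd68 was called lower in myotubes than in myoblasts. Itgam was called higher in myotubes and in reserve cells, with 0 counts in both myoblast libraries, a mean of 0.892 CPM for myotubes and one of 0.205 CPM for reserve cells.

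Members were first added up per library. Their share of all counts was 0.274% and 0.272% for myoblasts, 0.306% and 0.294% for myotubes, and 0.242% and 0.232% for reserve cells. The 3 groups did not overlap, with myotubes highest and reserve cells lowest. The ratio of means was 1.10 for myotubes over myoblasts, 0.868 for reserve cells over myoblasts and 1.27 for myotubes over reserve cells. On the CPM scale with TMM factors, which the tests of single genes use, these ratios were 1.33, 0.912 and 1.46, again with no overlap. As a share and in CPM, each pair gave p = 0.333 in an exact two-sided permutation test, the smallest value that 2 libraries against 2 can give. In TPM the rise in myotubes was smaller. Large subunit members summed to 3899 and 3786 in myoblasts, 4138 and 3918 in myotubes and 3562 and 3424 in reserve cells. Small subunit members summed to 1457 and 1543, 1502 and 1506, and 1372 and 1310, so myoblasts and myotubes overlapped there. In bulk RNA, fewer cells of a type and less RNA per cell cannot be told apart.

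**Figure D1:**
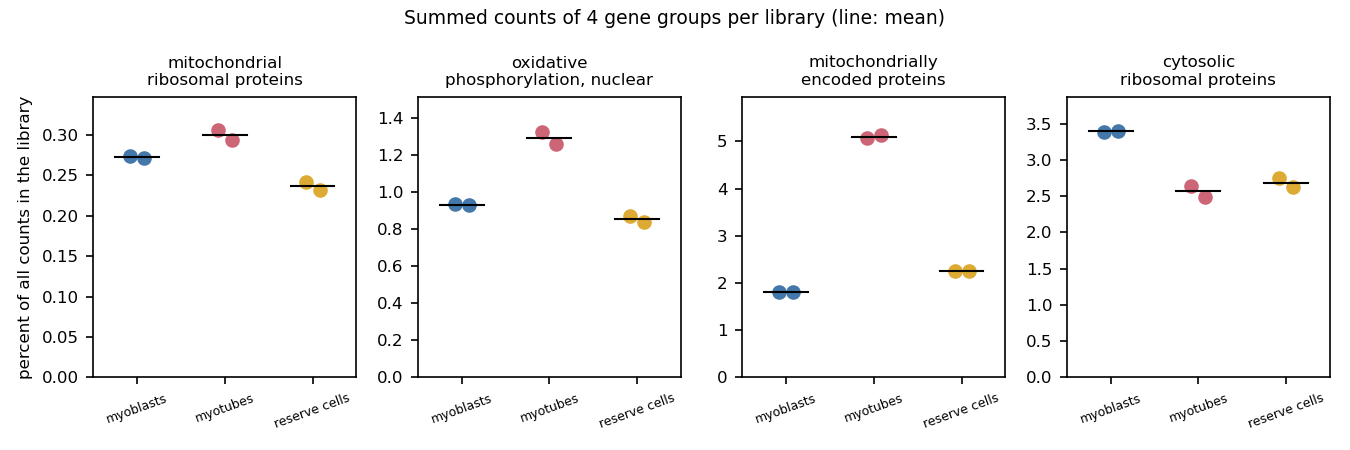
Summed counts of 4 gene groups as a percent of all counts in each library, with points for the 2 libraries of a group and a line at their mean. Mitochondrial ribosomal proteins ran from 0.232% to 0.306% with myotubes highest, mitochondrially encoded proteins rose most (1.81% to 5.13%), and cytosolic ribosomal proteins were highest in myoblasts.

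Other parts of the machinery had different sizes of change. The nuclear-encoded subunits of oxidative phosphorylation took 0.934% and 0.931% for myoblasts, 1.33% and 1.26% for myotubes and 0.873% and 0.840% for reserve cells. Their order of the groups was that of the mitochondrial ribosomal proteins. The mitochondrially encoded protein genes took 1.81% of each myoblast library, 5.07% and 5.13% of the myotube libraries and 2.25% of each reserve cell library. The cytosolic ribosomal proteins, which make up the ribosome outside mitochondria, were at 3.39% and 3.41% in myoblasts but at 2.64% and 2.49% in myotubes and 2.75% and 2.62% in reserve cells. The mitochondrial and the cytosolic ribosomal proteins thus moved in opposite directions between myoblasts and myotubes on this scale, and both were lower in reserve cells than in myoblasts. PolyA selection captures mitochondrial transcripts by their own short tails, and the part of tail length in the mitochondrially encoded values was not tested.

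The balance of the subunits was compared next. The summed level of large over small subunit members, in TPM, was 2.68 and 2.45 in myoblasts, 2.75 and 2.60 in myotubes and 2.60 and 2.61 in reserve cells. These values overlapped between all groups. The log2 ratio of myotubes over myoblasts was 0.06 ± 0.11 (SD, n = 2 and 2), with p = 0.667 in the exact two-sided permutation test. On summed counts, which take no account of length, the same ratio did not overlap between myotubes and myoblasts and was 1.05 times higher in myotubes (p = 0.333, the smallest that the exact permutation test can give). In TPM of protein-coding transcripts alone, it was 1.08 times higher in myotubes than in myoblasts, again with no overlap. On both of these measures myotubes also lay above reserve cells, while reserve cells and myoblasts overlapped.

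Gene by gene, the members were compared between groups with edgeR's quasi-likelihood test on all 6 libraries, with adjusted p over the 15467 genes tested and a threshold of 0.05. Between myotubes and myoblasts, 47 members were higher, 8 were lower and 23 were not called. Among all genes tested, 65.3% were called, 32.6% as higher and 32.7% as lower. The median log2 fold change of the members was 0.40, against 0.00 for all genes tested. These calls are on the CPM scale. Some members called higher had a lower mean TPM in myotubes than in myoblasts. Among them, named after their values were seen, were Mrpl2, Mrpl9, Mrpl11, Mrpl28 and Mrps24. Others, such as Mrpl53 and Mrps23, were higher in TPM as well. The changes were small. Only 5 members passed the threshold with at least 2-fold change, while 35.4% of all genes did. With library totals in place of TMM factors, the median of all genes moved to −0.27, and 31 members were higher and 13 lower (70.5% of the calls higher, against 85.5%). A change of scaling shifts all genes by nearly the same amount. The members' median therefore stood 0.40 above that of all genes under both scalings, which is no check of the rise.

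**Figure D2:**
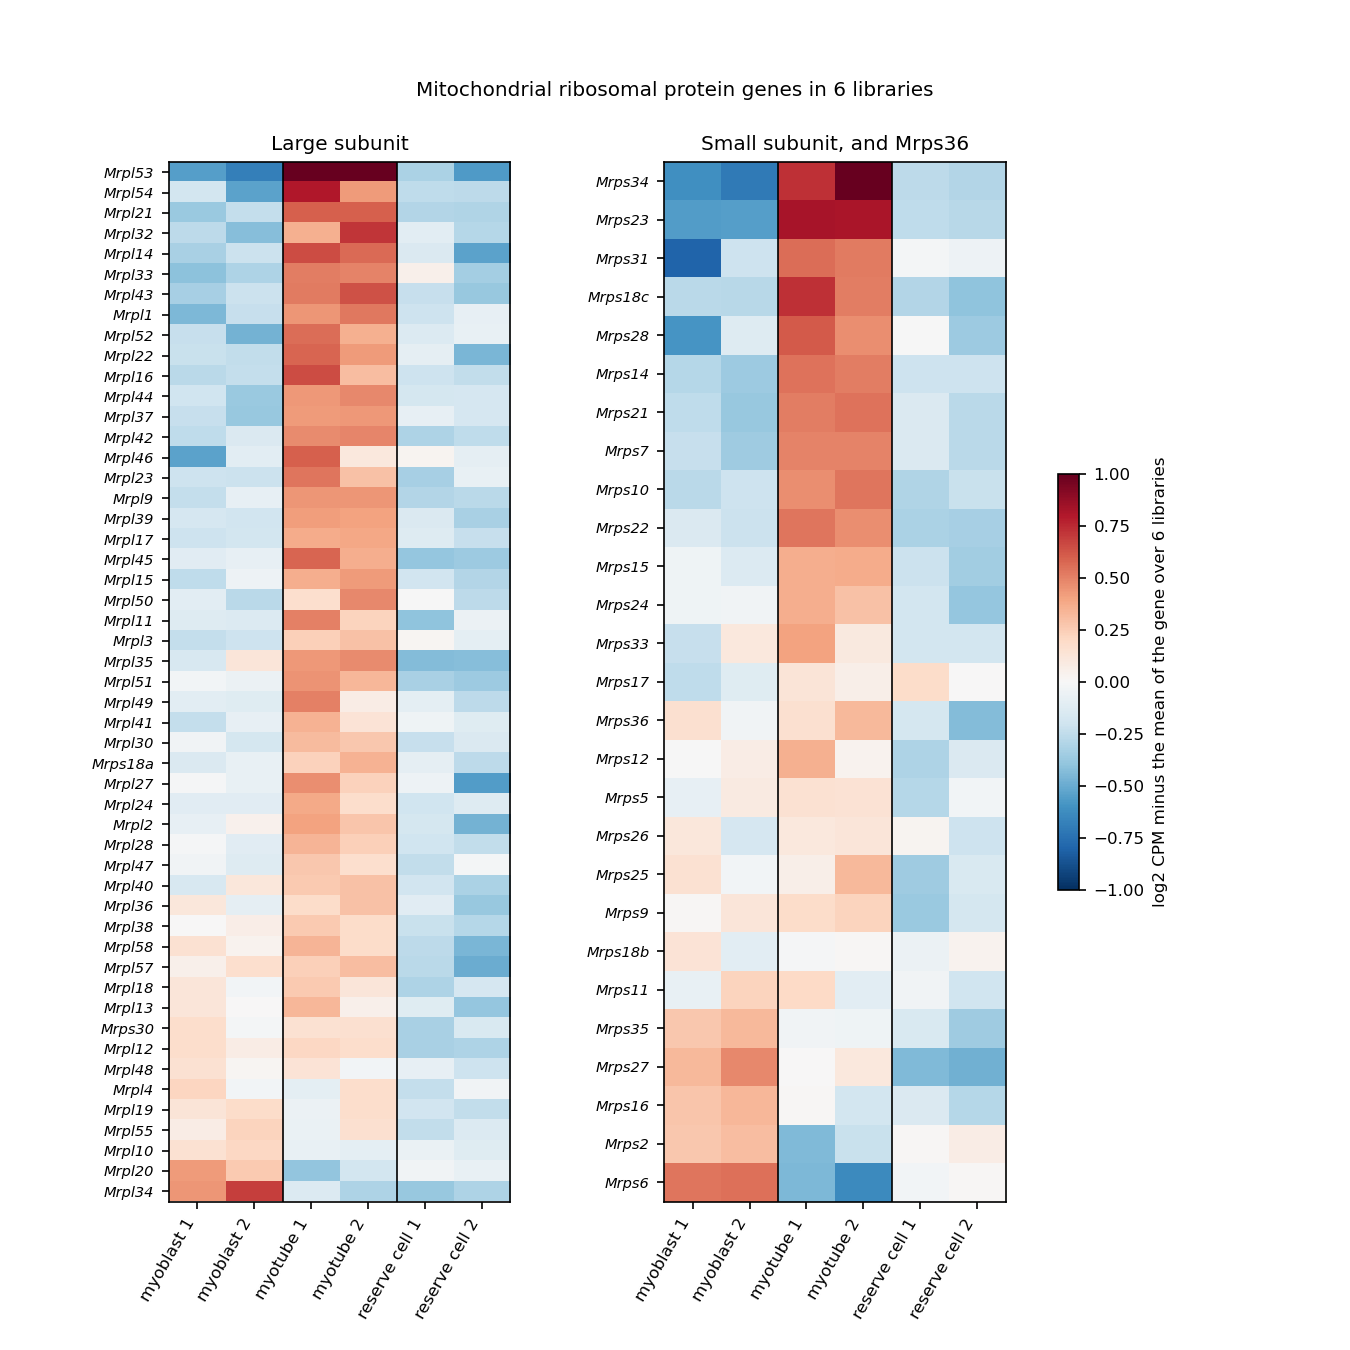
Level of each member in each library, as log2 CPM minus the mean of that gene over the 6 libraries, for the large subunit (left) and for the small subunit with Mrps36 (right), ordered by the change from myoblasts to myotubes. Most rows are reddest in the 2 myotube columns, and the rows at the bottom (Mrpl20, Mrpl34, Mrps2, Mrps6) are reddest in myoblasts.

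Mrpl53 had the largest increase. It encodes a protein of the large subunit that exists only in mitochondria and sits at the base of the stalk, where translation factors bind. The gene lies at chr6:83109040-83109939 (GRCm38, plus strand). It was at 17.9 and 16.2 CPM in myoblasts, 56.5 and 52.1 CPM in myotubes, and 21.0 and 17.7 CPM in reserve cells. Myotubes lay far above both other groups, which did not differ past the threshold (log2 fold change 0.18, adjusted p = 0.232 in edgeR). The log2 fold change of myotubes over myoblasts was 1.67 ± 0.11 (SE, adjusted p = 2.83e-06). Exons of Mrpl53 overlap those of Gm42688 on the same strand (10.4 and 13.5 CPM in myoblasts, 12.2 and 6.8 CPM in myotubes). They also overlap Ccdc142os on the other strand, and the part of read assignment was not tested. Mrpl54, also listed with the stalk, reached 0.98 ± 0.15 (adjusted p = 0.000466).

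Next came proteins of the small subunit that have no bacterial homolog. Mrps34, known for causing mitochondrial disease when mutated, was at 25.3 and 23.7 CPM in myoblasts, 63.9 and 85.2 CPM in myotubes, and 32.1 and 31.5 CPM in reserve cells. Myotubes were again apart from the other groups, with a log2 fold change of 1.61 ± 0.13 over myoblasts (adjusted p = 8.6e-06). Its counts were split unevenly between transcripts. A transcript annotated for nonsense-mediated decay held 95.4% and 4.29% of them in the 2 myoblast libraries, and counts in protein-coding transcripts alone were 0 in 3 libraries, 1 of each group. With those alone the change was not called (1.21, adjusted p = 0.695). Its exons also overlap those of Nme3 on the same strand and Mapk8ip3 on the other.

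Mrps23 and Mrps31 completed the members with a 2-fold rise. Mrps23 was at 27.4 and 27.6 CPM in myoblasts, 71.5 and 71.3 CPM in myotubes, and 33.9 and 33.4 CPM in reserve cells. Its replicates differed by less than 1 CPM, and the 3 groups did not overlap. The log2 fold change was 1.37 ± 0.07 over myoblasts (adjusted p = 3.84e-07). Mrps31 went from 11.9 and 17.9 CPM to 30.4 and 29.7 CPM (log2 fold change 1.01 ± 0.18, adjusted p = 0.00116). Its myoblast libraries differed more from each other than those of Mrps23, and the change ranged from 0.73 to 1.33 over the alternatives tried.

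Mrps6 was the only member with a 2-fold fall. It encodes a homolog of bacterial S6, which pairs with S18 on the small subunit. It was at 56.6 and 57.1 CPM in myoblasts, 28.6 and 25.1 CPM in myotubes, and 38.3 and 39.4 CPM in reserve cells. The groups did not overlap, and each pair passed the threshold. The log2 fold change was −1.08 ± 0.08 for myotubes over myoblasts (adjusted p = 6.4e-06). The gene starts at chr16:92058270 and shares exons on the same strand with Slc5a3, an inositol transporter, which was at 87.9 and 94.9 CPM in myoblasts, 14.7 and 13.7 CPM in myotubes and 79.7 and 84.5 CPM in reserve cells. How reads were split between these 2 genes is not given in the sources used here, and its part in the fall of Mrps6 was not tested.

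**Figure D3:**
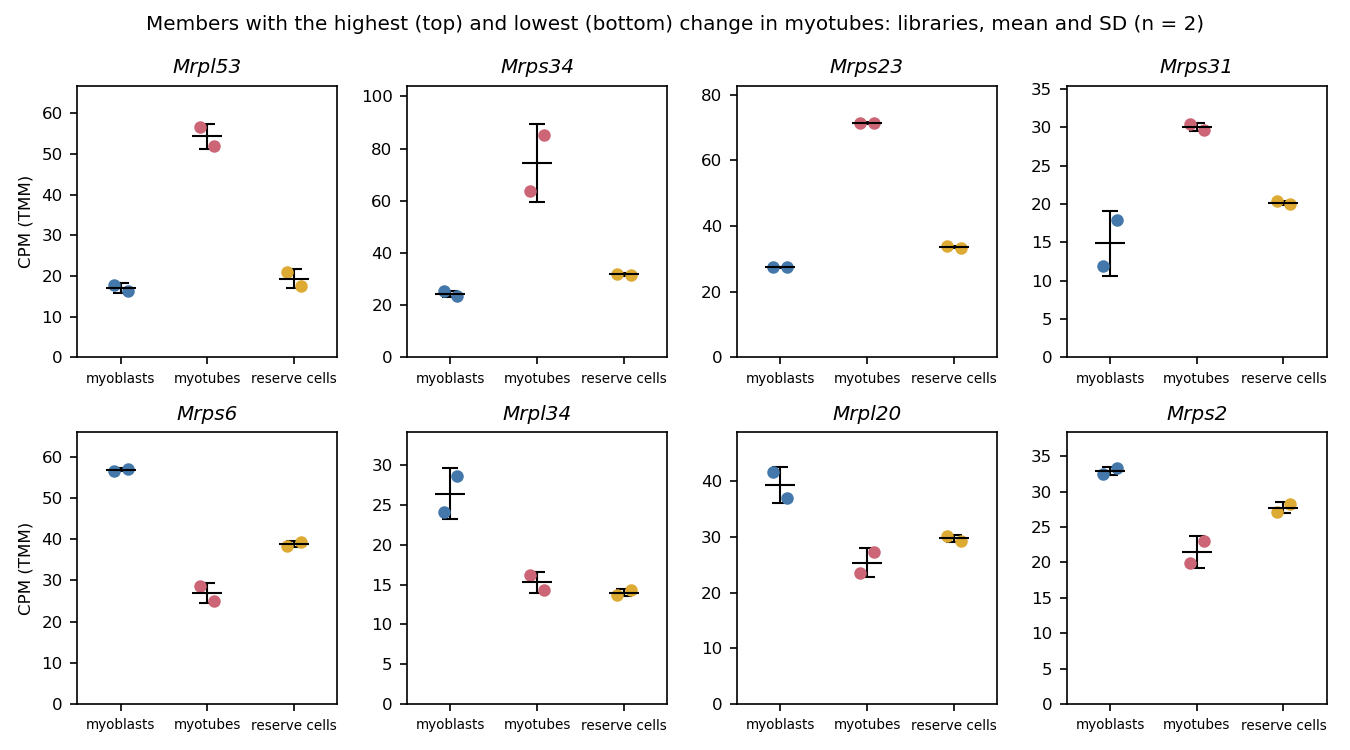
CPM in each library (points), with the mean and SD of the 2 libraries of a group, for the 4 members with the highest and the 4 with the lowest change between myotubes and myoblasts. All axes start at 0. Mrpl53, Mrps34, Mrps23 and Mrps31 are highest in myotubes, while Mrps6, Mrpl34, Mrpl20 and Mrps2 are highest in myoblasts.

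Of the other 7 members that fell, 5 are homologs of bacterial proteins, as are 48 of the 78 members. Mrpl34 was at 24.2 and 28.7 CPM in myoblasts, 16.2 and 14.4 CPM in myotubes and 13.7 and 14.3 CPM in reserve cells. Both groups of Day 7 thus lay below myoblasts, and their difference from each other did not pass the threshold. Its log2 fold change in myotubes was −0.79 ± 0.14 (adjusted p = 0.00107). Mrpl20, a homolog of an early assembly protein of bacterial ribosomes, fell by 0.63 on the log2 scale, and Mrps2 by 0.61. Mrps16 fell by 0.39 and Mrps27, a pentatricopeptide repeat protein, by 0.35. Mrps35 fell by 0.33, with an adjusted p of 0.05 after rounding that 12 of the 15 alternatives did not reach. Mrpl10 fell by 0.27.

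The members were then read by their place on the ribosome. At the stalk and factor-binding site, Mrpl53, Mrpl54 and Mrpl11 rose and Mrpl10, the anchor of the stalk, fell. Mrpl12, the stalk protein that contacts translation factors, was not called (72.3 and 67.5 CPM in myoblasts, 74.2 and 72.7 CPM in myotubes). In TPM, Mrpl12 was lower in myotubes (136 and 127 in myoblasts, 104 and 104 in myotubes). Around the exit of the polypeptide tunnel, 6 of 7 members rose. Mrpl22 and Mrpl44 had the largest values there, both with a log2 fold change of 0.74. Mrpl45, which ties the ribosome to the inner membrane, rose by 0.57 and Mrpl47 was not called (0.30, adjusted p = 0.0544). In the central protuberance, 3 of 6 rose, namely Mrpl52 (0.81), Mrpl46 (0.67) and Mrpl38 (0.19, adjusted p = 0.0492). These groups hold 5 to 7 genes each, and 32.6% of all genes tested were called higher.

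By subunit, 34 of 51 large subunit members were higher and 3 lower, with a median log2 fold change of 0.44. In the small subunit, 13 of 26 were higher and 5 lower, with a median of 0.29. Of 48 homologs of bacterial proteins 28 rose and 6 fell (median 0.39). Of the 29 members known only from mitochondria, 19 rose and 2 fell (median 0.52), and 4 of the 5 members with 2-fold change belong to them. The difference between these classes was not tested. Mrps36 was not called in this comparison (21.1 and 18.4 CPM in myoblasts, 21.1 and 23.6 CPM in myotubes).

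The 3 proteins homologous to bacterial S18 took different courses. Mrps18c is the small subunit copy that sits in the S18 position most like the bacterial one, Mrps18a belongs to the large subunit, and Mrps18b to the small. Mrps18c rose from 16.0 and 15.9 CPM in myoblasts to 32.1 and 27.6 CPM in myotubes (log2 fold change 0.90 ± 0.13, adjusted p = 0.000275). Mrps18a rose from 26.5 and 27.9 CPM to 34.4 and 37.2 CPM (0.40 ± 0.10, adjusted p = 0.00728). Mrps18b stayed at 28.2 to 33.2 CPM in all libraries and was not called in any comparison. Its most abundant transcript was not the same in all libraries. These courses depended on the scale. In TPM, Mrps18b was lower in myotubes (100 and 106 in myoblasts, 56.4 and 70.0 in myotubes). Mrps18a overlapped between these groups (73.1 and 78.2, then 71.6 and 78.7). Mrps18c was higher in myotubes in TPM too (66.5 and 64.5, then 99.2 and 88.0).

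Promoter stretches of these paralogs and of Mrps6 are shown because the members' upstream regions were searched for the binding motifs of factors known to drive nuclear genes for mitochondria. The sequences are RefSeq's, GRCm38.p6, read 5′ to 3′ on the strand of the gene. Parts annotated as untranslated exon were left out, except within the 30 bases printed around the motifs of Mrps18c. The region upstream of Mrpl53 lies in such a part of an overlapping gene model and is not shown. Capitals mark motifs.
Mrps6, chr16:92058086-92058269, plus strand: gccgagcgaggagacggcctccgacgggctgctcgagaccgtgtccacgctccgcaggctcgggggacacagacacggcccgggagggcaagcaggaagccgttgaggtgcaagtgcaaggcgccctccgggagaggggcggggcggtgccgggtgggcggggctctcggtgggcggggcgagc
Mrps18a, chr17:46110754-46110985, plus strand: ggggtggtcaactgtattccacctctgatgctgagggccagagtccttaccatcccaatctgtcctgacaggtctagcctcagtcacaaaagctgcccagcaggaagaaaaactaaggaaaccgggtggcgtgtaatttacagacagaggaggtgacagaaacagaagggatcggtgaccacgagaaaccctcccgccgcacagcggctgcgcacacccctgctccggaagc
Mrps18b, chr17:35916599-35916690, minus strand: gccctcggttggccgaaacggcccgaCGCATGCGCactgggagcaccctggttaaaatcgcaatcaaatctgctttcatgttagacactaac
Mrps18c, chr5:100798588-100798617, plus strand: ccccgggtCACGTGACTTCCGGcccgggaa

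The capitals of Mrps18b are the motif of nuclear respiratory factor 1 (NRF1, searched as GCGCATGCG), on the other strand. Those of Mrps18c are an E-box (CACGTG) followed by the motif of ETS factors such as GABPA (CCGGAAGT) on the other strand. The window of Mrps6, 250 bases before to 50 after the start, held none of the 4 motifs searched. That of Mrps18a held the YY1 motif, which lies outside the stretch printed. Promoters were listed for 69 of 78 members, and both strands were read. The NRF1 motif was in 10.1% of them and in 2.61% of the promoters of protein-coding genes. The ETS motif was in 17.4% against 5.69%, and the YY1 motif (AAGATGGCG) in 11.6% against 2.14%. The E-box, which MYC can bind, was in 7.25% against 8.91%. No motif of the 4 contains another. A match describes letters in a window and shows no binding.

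The change in myotubes was then set beside the motifs, with no test. Of the 7 members with the NRF1 motif 5 rose and 1 fell (median log2 fold change 0.59), and of the 62 without it 37 rose and 6 fell (median 0.40). Of the 12 with the ETS motif 7 rose and 1 fell, with a median of 0.46, against 0.40 for the others. The order was the other way for the YY1 motif (0.38 with it and 0.41 without) and for the E-box (0.35 and 0.41). The genes of most of these factors were lower in myotubes. Nrf1 averaged 39.5 CPM in myoblasts and 21.8 CPM in myotubes (log2 fold change −0.86, adjusted p = 0.00018). Gabpa fell by 0.52 and its partner Gabpb2 by 1.27. Myc fell by 0.64, and Yy1, also named after its value was seen, was not called (0.03). Among the coactivators, Pprc1 fell by 0.28, whereas Ppargc1a, named after its values were seen, went from 2.48 to 7.92 CPM (log2 fold change 1.67, adjusted p = 0.002). In the list of 10 regulators, 3 were higher and 5 lower.

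The start of a member often lay close to that of another gene on the opposite strand. Such a divergent start within 500 bases was found for 25 of 78 members (32.1%) and for 1958 of 22028 protein-coding genes (8.89%). In myotubes over myoblasts, 8 of the 25 neighbours rose, 9 fell and 8 were not called. These shares were near those of all genes tested, of which 32.6% were called higher and 32.7% lower. The median log2 fold change of the neighbours was −0.03, against 0.40 for their members. Both the member and the neighbour rose in 6 pairs, and the member rose while the neighbour fell in 3. The examples that follow were chosen after their values were seen. Mrpl2 and Klc4, a kinesin light chain gene, start 207 bases apart and both rose (log2 fold change 0.35 and 1.11). Mrpl51 starts 100 bases from Ncapd2, a condensin subunit of mitotic chromosomes. Ncapd2 was at 159 and 153 CPM in myoblasts and 15.4 and 14.3 CPM in myotubes (log2 fold change −3.39). Mrpl51 rose from 48.5 and 47.4 CPM to 67.6 and 62.2 CPM (0.44). In TPM, Mrpl51 was lower in myotubes (55.9 and 53.0 in myoblasts, 48.4 and 44.2 in myotubes). Mrpl57 starts 49 bases from Ska3, a kinetochore gene that fell by 4.10, and was itself not called (0.16). Mrps18c and Helq, a DNA helicase gene, start 29 bases apart, and the motifs of Mrps18c shown above lie at this gap. Helq fell by 0.73, and Mrps18c rose by 0.90. Mrpl46 and Mrps11 are a divergent pair of 2 members, of which Mrpl46 rose (0.67) and Mrps11 was not called (−0.03).

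Reserve cells were compared with myoblasts to see how the members differ in cells of Day 7 that stay unfused. The 15 genes of S phase and mitosis, of which 14 were lower in reserve cells than in myoblasts, were all lower still in myotubes. In this comparison 3 members were higher, 17 were lower and 58 were not called, and none changed 2-fold. Of all genes tested, 46.1% were called, 24.3% as higher and 21.8% as lower, and 16.8% were called with at least 2-fold change. The median log2 fold change of the members was −0.09, against 0.01 for all genes. In the large subunit 12 of 51 were lower and 0 higher. The share of members called lower, 17 of 78, was at the share of all genes called lower. The number called depended on single libraries. It became smaller when any library of these groups was left out, and so did the number called among all genes. The median of the members ranged from −0.15 to −0.09 when a library was left out. With library totals 27 members were lower and 1 higher.

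The largest falls in reserve cells were those of Mrpl34 and Mrps27. Mrps27 was at 51.1 and 57.0 CPM in myoblasts, 40.9 and 43.9 CPM in myotubes and a mean of 29.6 ± 0.52 CPM (SD, n = 2) in reserve cells. The 3 groups were apart from each other, with reserve cells lowest. The log2 fold change in reserve cells was −0.87 ± 0.08 (adjusted p = 6.05e-05), and that of Mrpl34 was −0.92 ± 0.14 (adjusted p = 0.000831). Mrps6, Mrps35, Mrps16 and Mrpl57 fell by 0.55, 0.55, 0.52 and 0.49. Mrpl58, a peptidyl-tRNA hydrolase built into the large subunit, fell by 0.45 and Mrpl12 by 0.44, from 72.3 and 67.5 CPM to 51.3 and 52.0 CPM.

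The members called higher in reserve cells by edgeR were Mrps34 (0.38, adjusted p = 0.044), Mrps23 (0.29, adjusted p = 0.00848) and Mrps17 (0.28, adjusted p = 0.0328). Mrps31 had the largest positive change (0.43) but was not called, and its change ranged from 0.17 to 0.76 over the alternatives. Mrps17, a homolog of bacterial S17, was at 32.6 and 35.6 CPM in myoblasts, 42.5 and 40.4 CPM in myotubes and 44.0 and 39.0 CPM in reserve cells. It is the only member whose mean CPM was highest in reserve cells (41.5 CPM). On that scale it did not differ there from myotubes past the threshold (−0.00, adjusted p = 0.986 in edgeR). In TPM it was at 48.7 and 62.2 in myoblasts, 48.6 and 49.5 in myotubes and 66.4 and 64.3 in reserve cells. Mrps34 kept its sign but lost its call under 8 of the 15 alternatives. Mrps23 lost its call under 3, among them leaving out either myoblast library (0.28 without replicate 1 and 0.29 without replicate 2). With DESeq2, 0 of the 78 members were called higher in reserve cells. With edgeR on protein-coding transcripts alone, Mrps34 turned to −0.34 and was not called either (adjusted p = 0.929).

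Myotubes against reserve cells compares the cells of Day 7 with each other. In it, 62 members were higher in myotubes, 2 were lower and 14 were not called. Of all genes tested, 55.6% were called, 27.2% as higher and 28.4% as lower. The median log2 fold change of the members was 0.55, against −0.01 for all genes. Calls with at least 2-fold change were 3 members, Mrpl53 (1.49), Mrps34 (1.23) and Mrps23 (1.08), against 23.4% of all genes. All 7 members at the exit tunnel were higher, as were 43 of 51 large subunit members and 18 of 26 small subunit members. Mrps36 also passed the threshold here (0.55 ± 0.14, adjusted p = 0.0123). The members lower in myotubes were Mrps6 (−0.53) and Mrps2 (−0.37). With library totals, 42 members were higher and 4 lower. This comparison and that of myotubes with myoblasts share the myotube libraries.

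**Figure D4:**
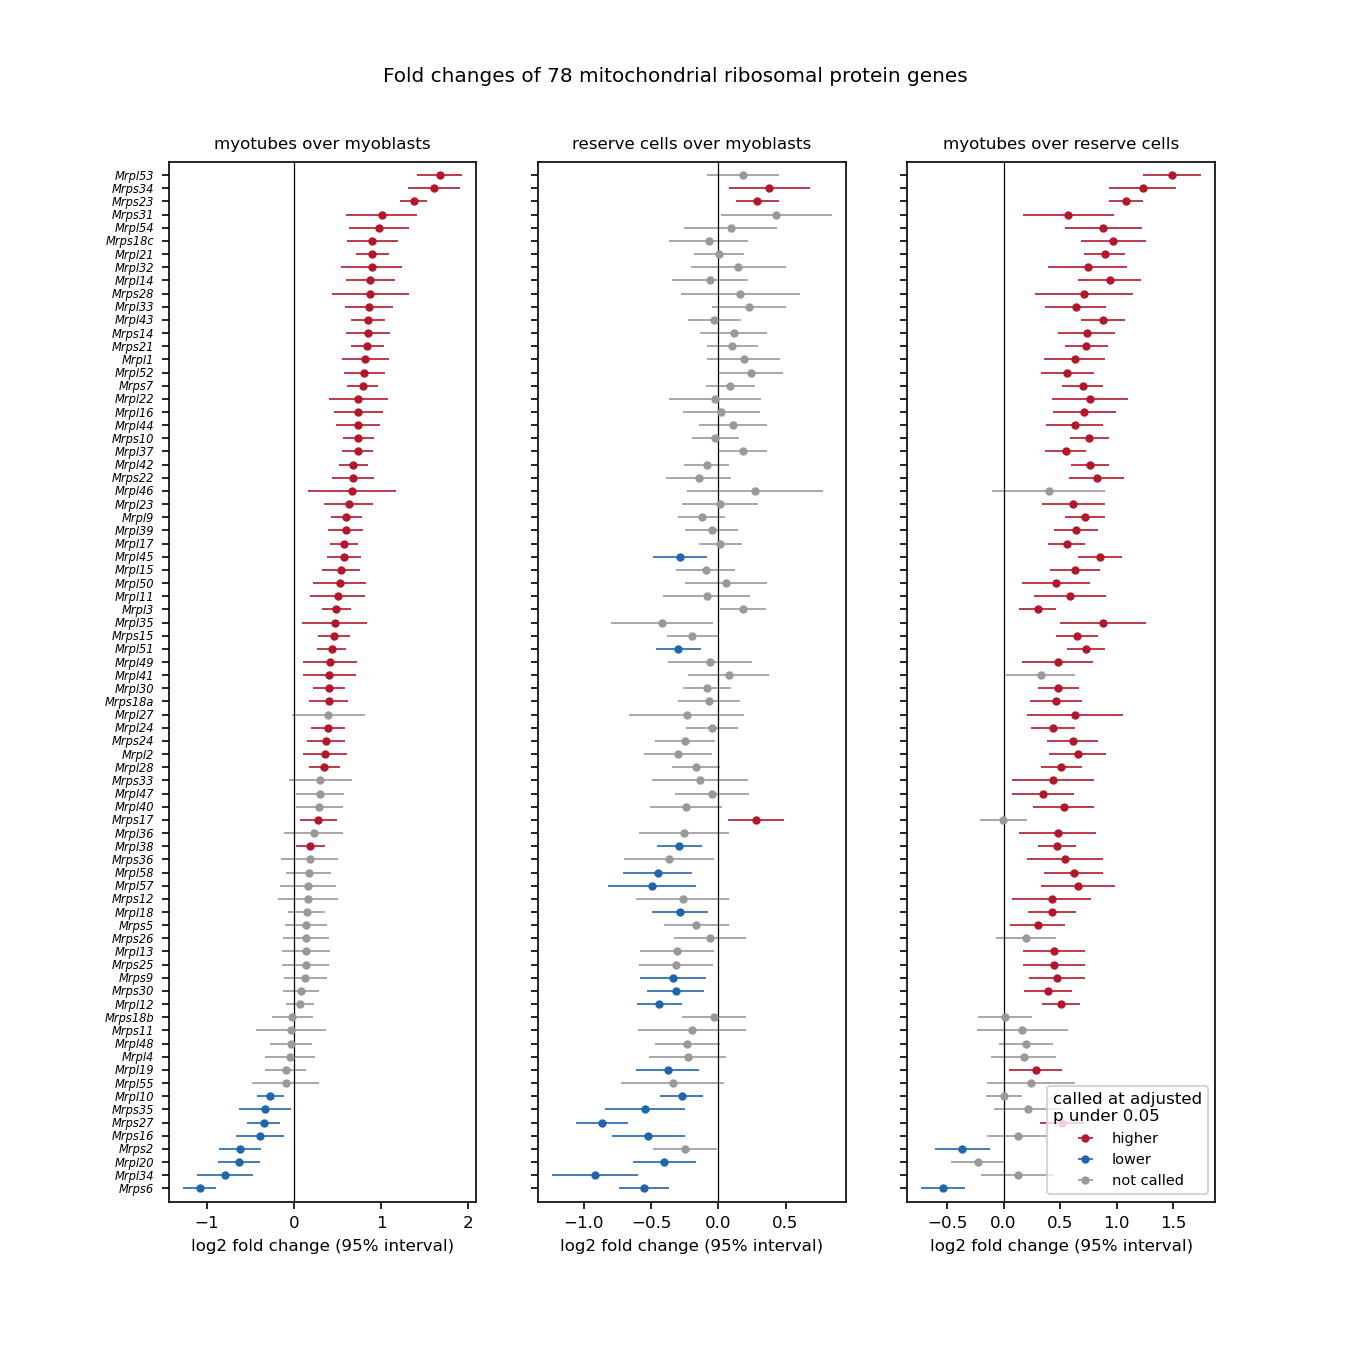
Log2 fold change of each of the 78 members with its 95% interval in the 3 comparisons, in 1 order set by myotubes over myoblasts. Points are red where called higher and blue where called lower at adjusted p under 0.05, and grey otherwise. Red points number 47, 3 and 62 from left to right, and the middle panel is mostly grey.

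Set side by side, the calls gave a main course and a few others. For 39 members, myotubes were higher than both other groups and these did not differ past the threshold. For 10 members the difference between myotubes and reserve cells alone was called, among them Mrpl13, Mrpl40, Mrps25 and Mrps36. For 7, among them Mrpl12, Mrpl18 and Mrpl58, reserve cells were lower than both other groups. For 5, Mrpl10, Mrpl20, Mrpl34, Mrps16 and Mrps35, myoblasts were higher than both others. Mrps6 was the single member with a call in each comparison that put myoblasts highest and myotubes lowest. The 6 members with no call at all, listed after their values were seen, were Mrpl4, Mrpl48, Mrpl55, Mrps11, Mrps18b and Mrps26. By group means in CPM, 63 members were highest in myotubes, 14 in myoblasts and 1 in reserve cells.

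Other genes of mitochondrial translation were read from lists chosen by function. Of 5 ribosomal proteins with other names, 4 rose in myotubes over myoblasts. Ptcd3 rose from 37.4 to 73.2 CPM on average (log2 fold change 0.97), Aurkaip1 by 0.90, Chchd1 by 0.64 and Gadd45gip1 by 0.29. Dap3, a GTP-binding protein of the small subunit first described in cell death, was not called (51.8 and 49.4 CPM, −0.07). Both mitochondrial ribosomal RNAs were higher in myotubes, mt-Rnr1 of the small subunit with 95.6 against 568 CPM and mt-Rnr2 of the large subunit with 522 against 1613 CPM. PolyA libraries hold them only in part. Of 13 mitochondrially encoded protein genes 12 were higher, with a median log2 fold change of 2.01, so the members' median of 0.40 was the smaller change. Of 80 tested subunits of oxidative phosphorylation 77 were higher and 2 lower (median 0.95). Of 83 cytosolic ribosomal proteins 15 were higher and 33 lower (median −0.13).

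Factors that build the ribosome or work with it were mixed. Of 25 genes for assembly and ribosomal RNA modification, 11 were higher and 4 lower. Nsun4, a methyltransferase for the small ribosomal RNA, rose from 17.2 to 44.2 CPM (log2 fold change 1.36) and Trmt61b, which methylates mitochondrial RNA, fell by 1.36 at a low level (2.43 and 0.947 CPM). Of 16 translation factors, 8 were higher and 1 lower. Gfm2, which helps to recycle ribosomes, rose by 1.49, Taco1, an activator of translation of cytochrome oxidase, by 1.21, and the initiation factor Mtif2 by 0.80, while the elongation factor Tufm rose by 0.25. Of 20 genes for charging of transfer RNAs, 8 were higher and 2 lower. Nars2 (1.78), Mars2 (1.48) and Lars2 (0.88) rose. Of 22 tested genes for mitochondrial transcription, RNA processing and DNA maintenance, 10 were higher and 1 lower. Tfb2m, needed for transcription of the mitochondrial genome, rose by 1.10 and the polymerase Polrmt by 0.44, whereas Tfam was not called (0.12). Of all genes tested, 32.6% were called higher.

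**Figure D5:**
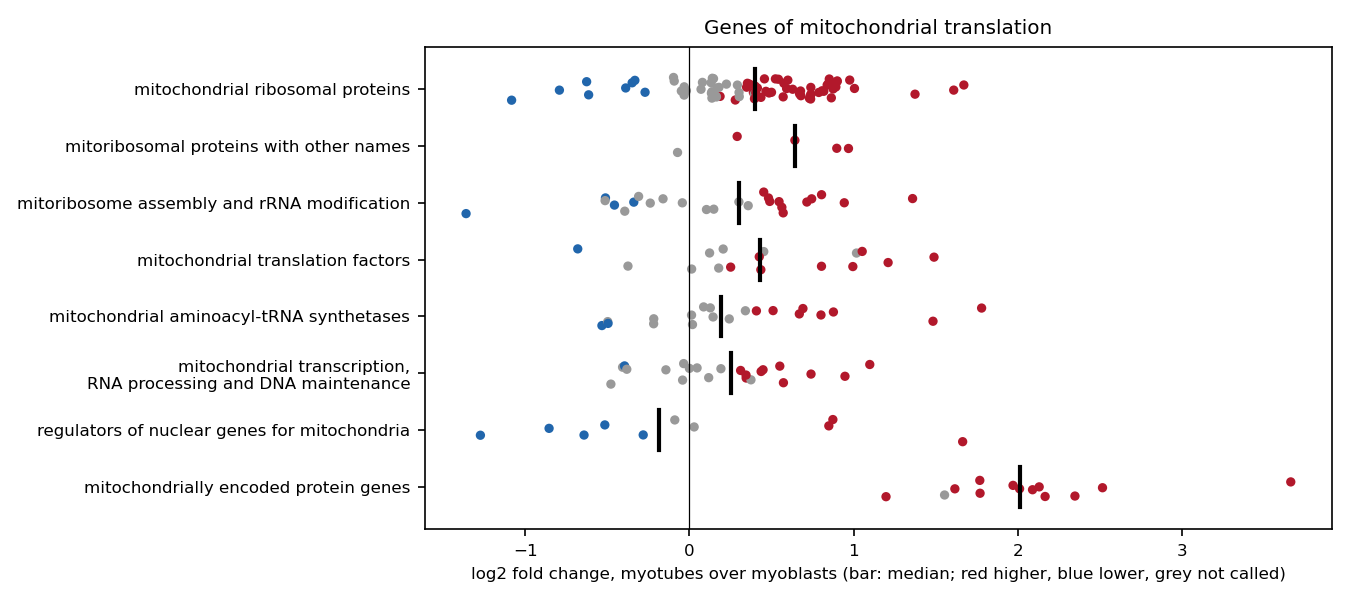
Log2 fold change of myotubes over myoblasts for the members and 7 lists of related genes. Each point is a gene, red where called higher, blue where called lower and grey where not called, and bars are medians. The members' median is 0.40, that of the mitochondrially encoded genes 2.01, and the regulators fall on both sides of 0.

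The values depend on how reads were assigned. Exons of 33 members overlap those of another gene, 8 on the same strand and 28 on the opposite strand, and whether counting used the strand is not given in the sources used here. Among the 45 members without such an overlap, 31 rose and 5 fell in myotubes over myoblasts, with a median log2 fold change of 0.47. Members had 343 transcripts in the count tables, of which 170 are protein-coding. For 70 members the same transcript was the most abundant in all 6 libraries, and the median member had 91.9% of its counts in it. The exceptions are 8 members, among them Mrps34, Mrps23, Mrps18b and Mrpl24.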

How the data were processed

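PolyA RNA of 6 C2C12 libraries was sequenced as paired-end reads. The authors deposited estimated counts per transcript as whole numbers, made per the study's methods by mapping to mm10 with HISAT2, filtering with SAMtools and quantifying with StringTie. The sources used here do not give versions, annotation release or strand setting. A series table of values named normalized was not used. Transcripts were summed to genes through GENCODE M21 (GRCm38) by identifier. Of 142604 transcripts 141374 matched, and the 1230 others held 0.375% to 0.872% of the counts. Library totals of 15658875 to 20055078 counts limit precision for low genes.

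Genes passing edgeR's filterByExpr (minimum count 10) were fitted over all 6 libraries with TMM factors and the quasi-likelihood test (edgeR 4.0.16, R 4.3.3), with Benjamini-Hochberg adjustment over 15467 genes and a threshold of 0.05. The script was tested on simulated data. Single values were compared by exact two-sided permutation (scipy 1.17.1). Alternatives were DESeq2 1.42.0, RLE factors, library totals, no filter or a filter at 10 CPM in 2 libraries, mitochondrially encoded genes left out, the 4 libraries compared alone, protein-coding transcripts alone, a replicate block and leaving out each library.

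Genes named were the 8 members with the highest and the 8 with the lowest change in each comparison, the 8 highest and 4 lowest by level, the stalk, exit tunnel and central protuberance members, the ribosomal proteins with other names, Mrps36, the Mrps18 paralogs and, of each other list, the 4 genes with the smallest adjusted p in a comparison. Members and lists were chosen with earlier results of these data known. Promoter sequences are from RefSeq, GRCm38.p6.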

Additional observations from a re-analysis of the deposited data

Results flagged for a closer look

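For 3 members the change from myoblasts was called in edgeR's test both in myotubes and in reserve cells, with opposite signs, and the difference itself passed the threshold in myotubes against reserve cells. Mrpl45, which ties the ribosome to the inner membrane, was at 43.2 and 44.1 CPM in myoblasts, a mean of 64.9 CPM in myotubes with both libraries above the others, and 35.6 and 36.2 CPM in reserve cells. Its log2 fold change was 0.57 in myotubes over myoblasts, −0.28 in reserve cells over myoblasts and 0.85 in myotubes over reserve cells (adjusted p = 5.56e-05). Mrpl51, a large subunit protein named after its values were seen, was at 39.5 and 38.6 CPM in reserve cells, below both myoblast libraries, with a difference of 0.73 between myotubes and reserve cells (adjusted p = 5.11e-05). Mrpl38 of the central protuberance differed by 0.48 (adjusted p = 0.000659), and its rise over myoblasts of 0.19 passed the threshold narrowly (adjusted p = 0.0492). In TPM, both Mrpl51 and Mrpl38 were lower in myotubes than in myoblasts, as were the means of some other members called higher. Mrpl51 was at 55.9 and 53.0 TPM in myoblasts and 48.4 and 44.2 TPM in myotubes. Mrpl38 was at 81.0 and 89.0 TPM in myoblasts and 71.2 and 68.9 TPM in myotubes. The rise of Mrpl38 over myoblasts was no longer called under 9 of the 15 alternatives, and under library totals it turned sign and was not called either, and the fall of Mrpl45 in reserve cells was no longer called under 6 (range −0.36 to −0.27). The 3 comparisons share their libraries.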

How the results depend on the processing

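Of 144 values of named members, 89 kept their direction and side of the threshold under all 15 alternatives. With library totals, which leave the median of all genes at −0.27 in myotubes over myoblasts, 31 members were higher and 13 lower (median 0.12), 1 was higher and 27 lower in reserve cells over myoblasts, and 4 were lower in myotubes over reserve cells (median 0.34). The same setting turned Mrpl12 to −0.21 and Mrpl38 to −0.092 over myoblasts and Mrpl10 to −0.20 over reserve cells. Between reserve cells and myoblasts, 0 members were higher with DESeq2, 1 with no filter and 1 with protein-coding transcripts alone, where Mrps34 turned to −0.34. In myotubes over reserve cells, 1 member was lower with DESeq2 and 1 with protein-coding transcripts alone. The log2 ratio of the summed share moved from 0.14 to 0.41, from −0.20 to −0.13 and from 0.34 to 0.55 with TMM factors, and the first to 0.19 without mitochondrially encoded genes. The cause was not tested.

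Leaving out a library gave 5 to 7 members lower in myotubes over myoblasts, 5 of them without myoblast replicate 2. In reserve cells over myoblasts it gave 10 to 22 changed, 1 to 3 higher and 7 to 19 lower, the 7 without reserve cell replicate 2 and the 9 and 11 without myoblast replicate 1 and 2. In myotubes over reserve cells it gave 1 to 3 lower, the 1 without myotube replicate 1 or either reserve cell replicate and the 3 without myotube replicate 2. A lone library was assumed to vary like the other groups. Calls among all genes in reserve cells over myoblasts also became fewer when a library of either group was left out.

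Samples sharing a replicate number did not deviate together (correlations of 0.0022, 0.040 and −0.032), so the numbers were not taken as pairs. With a replicate block, 53 members changed in myotubes over myoblasts, 21 in reserve cells over myoblasts and 60 in myotubes over reserve cells.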
